A study of Mus musculus with 6 samples.

Results

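Cytosolic ribosomal proteins were described at the transcript level in cultured brown adipocytes that did or did not carry a functional Ucp1 gene. The family was taken by gene name from the RefSeq coding transcripts of the table, as the symbols of the small (Rps) and large (Rpl) subunit proteins including their named paralogues. S6 kinases and symbols of pseudogenes were left out, and the most abundant transcript stood for each gene. This gave 80 genes, 31 of the small subunit, 46 of the large subunit and 3 of the P stalk, out of 22466 gene symbols with a RefSeq transcript.

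Primary cultures were set up from precursor cells of the interscapular brown adipose tissue of male 129SvEvS1 mice, 5 to 6 weeks old, which carried either an intact Ucp1 gene (WT) or a Ucp1 knockout on the same strain background (Ucp1-KO). After 2 days of induction and 7 days of differentiation with insulin, T3 and rosiglitazone, RNA was taken from 3 WT cultures (10, 11 and 12) and 3 Ucp1-KO cultures (13, 14 and 15) and read by single-end sequencing, 50 bases per read. The cultures are described as independent, while the number of animals behind each is not given in the sources used here, so that p-values measure the spread between these cultures. Such cultures hold differentiated adipocytes along with other cells of the stromal-vascular fraction, and with bulk RNA fewer cells of a type and less RNA per cell cannot be told apart.

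Abundance was given in RPKM, which are reads scaled to the length of the transcript and the mapped reads of the library. The totals behind the RPKM values lay between 14989606 and 17727652 reads per culture, and for a 1000-base transcript a count of 3 would be listed as 0.169 to 0.2 RPKM. Ucp1 itself stood at 1775, 981 and 1157 RPKM in WT and at 307, 409 and 398 RPKM in Ucp1-KO, where a remnant of the transcript is still made. The adipocyte markers Adipoq, Fabp4, Plin1, Lpl, Pparg, Cidea, Ucp1, Ppargc1a and Cox7a1 summed to between 31480 and 34960 RPKM in all 6 cultures, of which Fabp4 alone made up 26400 to 29310 RPKM. Cidea ranged from 615 to 1371 RPKM and Ppargc1a from 7.12 to 15.99 RPKM, and 0 of these 9 were at 0.

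The cytosolic ribosome is built from a small subunit, which holds the mRNA and reads the codons, and a large subunit, which joins the amino acids. Most ribosomal proteins are needed in about equal copy number in every cell, and the mRNAs that encode them are among the most abundant of most tissues. A pair of features of these genes is taken up below. Their mRNAs commonly begin with a C and an unbroken run of pyrimidines, the terminal oligopyrimidine (TOP) motif, through which mTOR and LARP1 control their translation. In addition, their mRNAs have been copied back into the genome many times as processed pseudogenes, intron-less copies that share most of the sequence of the parent gene.

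The listed levels ran from 0 to 406 RPKM, and the highest gene was at place 122 among the RefSeq transcripts of the table. Of the 80 genes, 12 had a mean of at least 100 RPKM, 38 of at least 10 RPKM and 56 of at least 0.5 RPKM, which was the minimum for testing. The remaining 24 were below this minimum, 8 of them with 0 reads in all 6 cultures. The 8 highest genes together made up 54.8% of the summed RPKM of the family and the 20 highest 87.2%. The order of the genes was nearly the same in all cultures, with Spearman's rho between 0.988 and 0.996 over the 56 genes for any pair of cultures.

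The most abundant transcript was that of Rplp1, an acidic protein of the P stalk, the flexible arm of the large subunit that recruits translation factors. It stood at 395, 436 and 358 RPKM in WT and at 464, 377 and 404 RPKM in Ucp1-KO. Its stalk partner Rplp2 reached 149, 151 and 128 RPKM in WT and 143, 136 and 137 RPKM in Ucp1-KO. Rplp0, which anchors both on the ribosome, was lower with 68.0, 90.8 and 75.7 RPKM in WT and 71.5, 66.4 and 65.3 RPKM in Ucp1-KO. The 3 stalk genes kept this order in every culture, and for each of them the genotypes overlapped.

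Rpl8, at the peptidyl transferase centre of the large subunit, stood at 281, 310 and 266 RPKM in WT and at 300.2, 256 and 245 RPKM in Ucp1-KO. Rpl4, which lines the tunnel for the nascent protein, stood at 204, 272 and 232 RPKM in WT and at 223, 214 and 230.3 RPKM in Ucp1-KO. In both genes WT culture 11 was the highest of the WT cultures and of all 6, and the genotypes overlapped.

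Rps15, a protein close to the decoding site, was measured at 205, 234 and 200.5 RPKM in WT and at 219, 212 and 214 RPKM in Ucp1-KO. Rps14 of the small subunit platform was measured at 163, 248 and 189 RPKM in WT and at 182, 204 and 235 RPKM in Ucp1-KO. Only 2 of the 55 neighbouring pairs in the order of the 56 genes had ranges that did not overlap. In 11 of these pairs, the first gene was above the next in all 6 cultures.

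**Figure D1:**
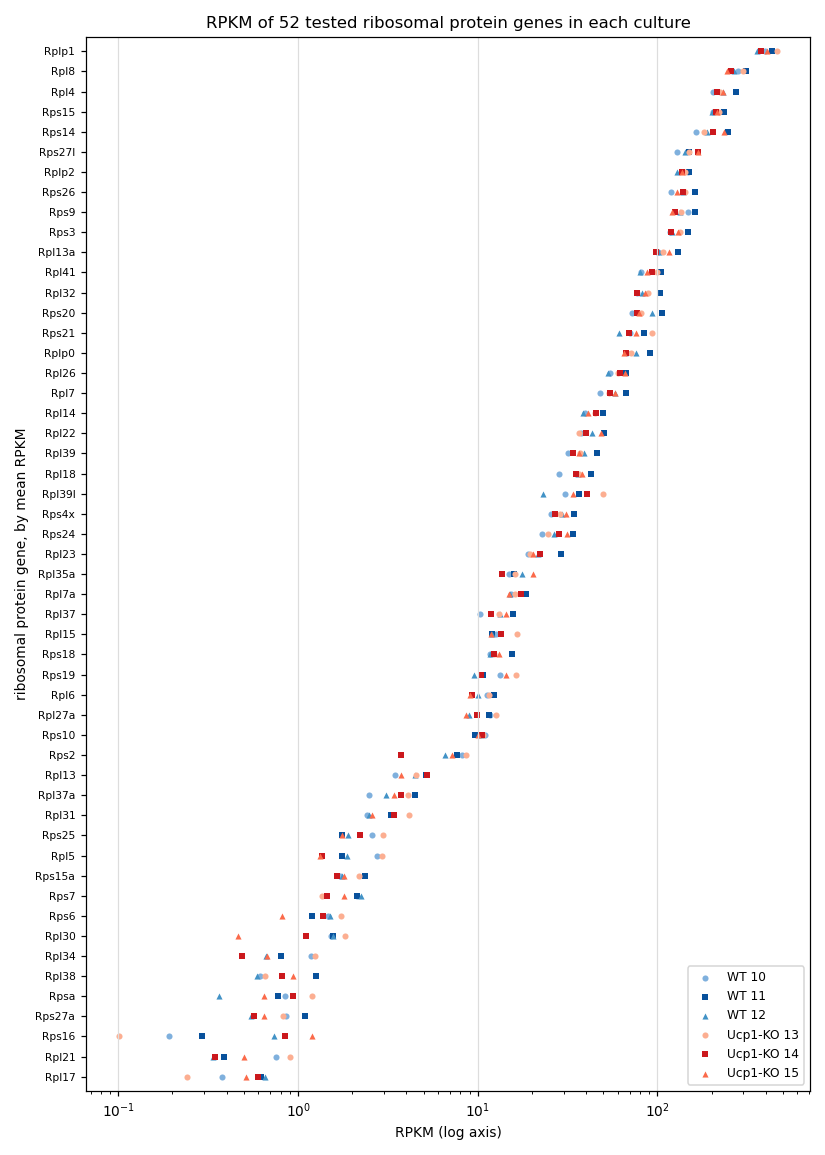
RPKM of 52 of the 56 tested ribosomal protein genes on a log axis, ordered by their mean, with 1 point for each of the 3 WT (blue) and 3 Ucp1-KO (red) cultures. Levels run from about 406 RPKM for Rplp1 to 0.501 RPKM for Rpl17, and WT culture 11 (dark blue squares) lies at the right edge of most genes above 10 RPKM.

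At the lower end of the tested genes, reads were few. Read numbers of single genes were derived from RPKM, for most genes as the smallest whole numbers that fit the 6 values, and true counts can be multiples of them. Rps27a, made as a fusion with ubiquitin, Rps16, Rpl21 and Rpl17 had means of 0.758, 0.560, 0.538 and 0.501 RPKM from 8 to 15, 1 to 11, 11 to 27 and 3 to 9 reads per culture. The first gene outside was Rpl19 with 0.486 RPKM from 2 to 10 reads. It was followed by Rpl35 with 0.375 RPKM and Rpl3l with 0.264 RPKM. Rpl36, Rpl12, Rpl10a, Rpl27, Rps28, Rps29, Rpl24, Rps23, Rpl10, Rpl3, Rps13, Rps12 and Rpl36a were listed between 0.0200 and 0.168 RPKM. For Rpl35 and these 13 the smallest fitting numbers were at most 3 reads in any culture. Among the 8 genes listed at 0 in all 6 cultures were Rpl10l, Rpl28, Rpl29, Rpl9, Rpl11, Rps27 and Rpl23a. Except for the tissue-restricted paralogues Rpl3l and Rpl10l, the proteins of these genes are core components of every ribosome, so that a listed 0 is reported here as listed and not as absent transcription.

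The low values went together with the sequence that these genes share with other loci. By the authors' description, only reads with a unique place had been assigned to transcripts. The share of 50-base windows of each coding sequence that occur letter for letter in a transcript of another gene was therefore counted in GENCODE M21 (GRCm38). In 15 genes this share was under 50%, and 13 of them, all except Rpl3l and Rpl10l, were listed at 35.7 RPKM or more with a median of 128 RPKM. In 30 genes between 50 and 95%, the median was 17.3 RPKM. In the 35 genes at 95% or more, the median was 0.109 RPKM, 15 passed the minimum and 3 reached 10 RPKM. Spearman's rho between level and shared percentage was -0.70 over the 80 genes, while rho between level and coding length was 0.015. Both are descriptions over genes that share the same 6 libraries, and the mapping settings that decide on uniqueness are not given in the sources used here. The share covers coding windows only, while RPKM covers the whole transcript. Over the whole transcript, Rpl28 and Rpl11 had 65.5% and 37.8% of windows not found elsewhere with up to 2 mismatches, yet were listed at 0. For Rps27 and Rpl9, also listed at 0, these were 1.35% and 6.39%.

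**Figure D2:**
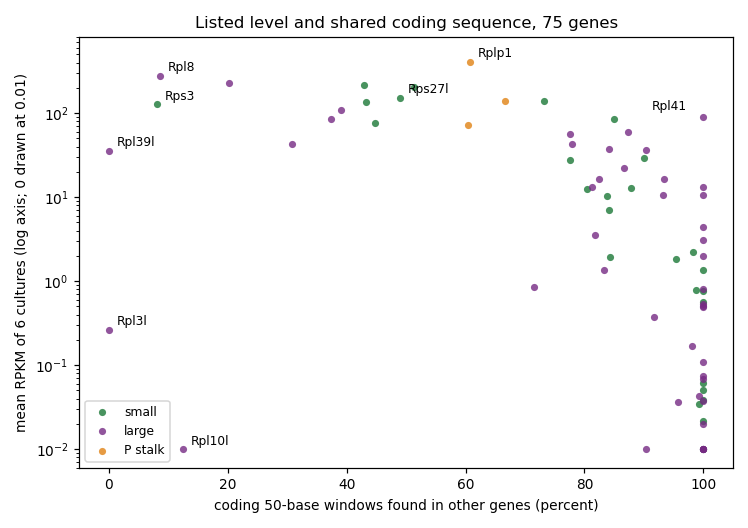
Mean RPKM of the 6 cultures on a log axis, with 0 drawn at 0.01, against the percentage of the 50-base coding windows found in transcripts of other genes, 1 point for each of 75 of the 80 genes. Genes with under 50% shared windows lie at 35.7 RPKM or more except Rpl3l and Rpl10l, and of the 7 shown that were listed at 0 all except Rpl10l and Rpl29 (90.3%) are at 100%.

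Rpl3l and Rpl10l had low values with few exactly shared windows. Rpl3l, a paralogue of Rpl3 known from heart and skeletal muscle, had 0% of its coding windows elsewhere and was listed at 0.113, 0.173 and 0.217 RPKM in WT and at 0.179, 0.391 and 0.514 RPKM in Ucp1-KO, from 2 to 8 reads. Rpl10l, an intron-less paralogue of the X-linked Rpl10 known from testis, had 12.4% of its coding windows elsewhere and 0 reads. With up to 2 mismatches allowed, this share was 89.6% for Rpl10l and still 0% for Rpl3l. Exact shares were 95.7% for Rpl3 and 100% for Rpl10.

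Rps27l was the most abundant of the paralogues at 129, 150 and 142 RPKM in WT and 150, 167 and 168 RPKM in Ucp1-KO, while Rps27, the zinc-finger protein of the small subunit after which it is named, was listed at 0. Both coding sequences are 255 bases long and identical at 194 positions (76.1%), with at least 7 differences in any 50 bases at the same position. Rps27 had 100% and Rps27l 49.0% of its coding windows in other genes, and 15 and 6 pseudogenes shared at least 1 window with them. The first 50 coding bases of both are shown, with the bases that differ between Rps27 and Rps27l in capitals. These differences can tell a read of Rps27 from one of Rps27l, but not from the other genes that hold its coding windows. Both windows were read from GENCODE M21 transcripts of genes at chr3:90212522-90213651 (minus strand) and chr9:66946086-66949516 (plus strand).
Rps27: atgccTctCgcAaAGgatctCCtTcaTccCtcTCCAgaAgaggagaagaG
Rps27l: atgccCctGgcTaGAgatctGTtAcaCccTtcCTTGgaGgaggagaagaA

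Rpl39, a small protein at the exit of the nascent chain tunnel, and Rpl39l, known as its testis counterpart, were at similar levels. Rpl39 stood at 31.8, 45.9 and 39.2 RPKM in WT and at 36.9, 33.9 and 36.4 RPKM in Ucp1-KO. Rpl39l stood at 30.5, 36.5 and 23.2 RPKM in WT and at 49.5, 40.4 and 34.0 RPKM in Ucp1-KO. The coding sequences, 156 bases each, are identical at 133 positions (85.3%), and 84.1% of the coding windows of Rpl39 but 0% of those of Rpl39l occur elsewhere. Their first 50 coding bases, again with differences in capitals, come from genes at chrX:37082520-37085402 (minus strand) and chr16:10170226-10174911 (plus strand).
Rpl39: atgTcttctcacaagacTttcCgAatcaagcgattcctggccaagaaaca
Rpl39l: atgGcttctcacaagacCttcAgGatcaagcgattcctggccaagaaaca

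Of the remaining pairs, Rps4x, the X-linked small subunit protein, stood at 25.6, 34.5 and 29.3 RPKM in WT and at 28.7, 26.9 and 31.1 RPKM in Ucp1-KO. Its paralogue Rps4l was not matched in the table and has no value here.

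For several core genes the table held a second entry with the same gene symbol at a pseudogene locus. Among 255 Ensembl transcripts with a symbol of the family and a place in GENCODE M21, 29 lay at pseudogenes of 27 genes. In 10 of these 27 genes the pseudogene was listed above the RefSeq transcript, and in 6 it had a mean of at least 10 RPKM. Rpl3, which helps to form the peptidyl transferase centre, was listed at 0.0366 RPKM, from 0 to 2 reads per culture. Rpl3-ps1 (chrX:13202571-13203780) was listed at 35.2, 35.1 and 32.1 RPKM in WT and at 34.8, 34.0 and 33.0 RPKM in Ucp1-KO. Rpl10a was listed at 0.0737 RPKM, while Rpl10a-ps1 (chr1:64993951-64994604) was listed at 48.5, 65.2 and 49.9 RPKM in WT and at 56.7, 50.3 and 47.6 RPKM in Ucp1-KO. All 605 coding windows of Rpl10a occur in Rpl10a-ps1, and 1060 of the 1163 coding windows of Rpl3 occur in Rpl3-ps1. In reverse, all 605 windows of Rpl10a-ps1 and 1061 of the 1161 windows of Rpl3-ps1 occur in the transcript of the parent gene. Both pseudogenes were thus listed above their parent genes although they share all or most of their windows with them.

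The pseudogene entries of Rpl31 (Rpl31-ps8), Rps24 (Rps24-ps3) and Rpl12 (Gm10275) had means of 64.9, 99.8 and 19.95 RPKM, against 3.06, 27.9 and 0.109 RPKM for the RefSeq transcripts. All 329 windows of Rpl31-ps8 also occur in the Rpl31 transcript. Which locus the reads came from was not tested. How close the copies are is shown by a stretch of Rpl3 and Rpl3-ps1, coding bases 18 to 67 of a gene at chr15:80077791-80091868 (minus strand) and bases 19 to 68 of the pseudogene, identical at 49 of 50 positions. The differing base is in capitals.
Rpl3: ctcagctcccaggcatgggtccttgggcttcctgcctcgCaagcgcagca
Rpl3-ps1: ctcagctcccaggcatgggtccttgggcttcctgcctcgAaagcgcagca

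**Figure D3:**
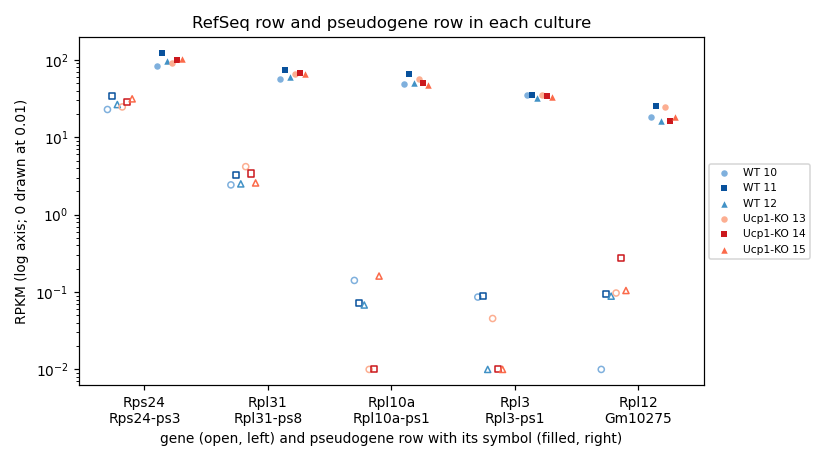
RPKM on a log axis, with 0 drawn at 0.01, of the RefSeq transcript (open symbols, left) and of the pseudogene entry with the same gene symbol (filled symbols, right) in each of the 6 cultures for 5 of the 6 counted genes whose pseudogene entry had a mean of at least 10 RPKM. The pseudogene entry is higher in all 6 cultures for the 5 genes shown, from 3.58 times the mean of Rps24 to 930 times that of Rpl3.

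The annotated starts of the genes were compared with the TOP motif, here a C at the start followed by at least 4 bases that are each C or T. RefSeq promoter sequences (GRCm38.p6) matched 60 of the 80 genes by symbol. Of these 60, 13 (21.7%) had the motif at an annotated start, against 3.01% of the 27025 genes in the promoter table and 0 of 69 mitochondrial ribosomal protein genes. Within 5 bases either side it was found in 28 of 60 (46.7%), against 21.2% of all genes and 24.6% of the mitochondrial ribosomal protein genes. Those with no entry included Rplp1, Rpl8, Rps14, Rpl32, Rps20, Rpl7, Rpl30, Rps27a, Rpl21, Rpl17, Rpl36, Rps29, Rpl3, Rpl29 and Rpl23a. The match describes the letters at annotated starts and not where transcription began in these cultures.

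The following windows hold the 10 bases before and 15 bases from the annotated start, with the pyrimidine run from the start in capitals. They show 5 genes with the motif, among them Rps6, the substrate of S6 kinases, and the abundant genes Rpl4 and Rps15 without it.
Rplp2, chr7:141447641-141447665, plus strand: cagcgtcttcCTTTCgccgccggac
Rps6, chr4:86857353-86857377, minus strand: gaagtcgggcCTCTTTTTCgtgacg
Rps18, chr17:33955651-33955675, minus strand: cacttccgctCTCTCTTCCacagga
Rps10, chr17:27635230-27635254, minus strand: gcgcacgcccCTTCCTTTCCagcct
Rpl15, chr14:18270972-18270996, minus strand: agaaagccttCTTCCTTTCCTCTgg
Rpl4, chr9:64173377-64173401, plus strand: tttcctgtgggagcagccgggtaga
Rps15, chr10:80292421-80292445, plus strand: cagagctcgcgataactgcgcaagc

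The genotypes were then compared to ask whether loss of Ucp1 was accompanied by a different level of ribosomal protein transcripts. No gene of the family passed the adjusted threshold of 0.05 with limma on log2(RPKM + 1), the smallest adjusted p being 0.868, and neither did any of the 16865 RefSeq transcripts tested (0%). This included Ucp1 itself, with a log2 fold change of -1.78 and an adjusted p of 0.868 (limma). At an unadjusted p under 0.05 there was 1 of 56 genes, against 5.54% of all transcripts (2.3% higher and 3.24% lower in Ucp1-KO). The same gene, Rps7, was the only one of the 56 whose genotypes did not overlap, against 11.2% of all transcripts (6.04% higher and 5.15% lower). Of the 56 genes, 25 (44.6%) were higher and 31 lower in Ucp1-KO, compared with 49.6% higher over all transcripts, and the median log2 fold change was -0.02, compared with -0.0016.

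The differences were also small one by one. They lay between -0.32 and 0.45 on the log2(RPKM + 1) scale, with quartiles of -0.08 and 0.07, and 92.9% of the 56 genes were within 0.25 of no change, compared with 82.4% of all transcripts. For the 38 genes of at least 10 RPKM this was 94.7%, compared with 85.5% of the 6895 transcripts at that level, and their standard errors lay between 0.0855 and 0.197 with a median of 0.128. A missed threshold does not show equal levels, and differences of the size of these errors were not detectable with 3 cultures per genotype. By subunit, 11 of 24 small subunit genes, 13 of 29 large subunit genes and 1 of 3 stalk genes were higher in Ucp1-KO, with median log2 fold changes of -0.01, -0.02 and -0.03.

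Summed over the 80 genes, RPKM reached 3229, 3984 and 3319 in WT and 3599, 3355 and 3489 in Ucp1-KO. The means of 3511 ± 413 (SD, n = 3) and 3481 ± 122 (SD, n = 3) put Ucp1-KO at 99.2% of WT. This direction turned without WT culture 11 (106.3%), without Ucp1-KO culture 14 and with median-of-ratios scaling (100.3%). The small subunit sum was at 99.5%, the large subunit sum at 97.9% and the stalk sum at 100.7% of WT. The WT cultures on their own spanned a wider range than the distance between the genotypes.

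**Figure D4:**
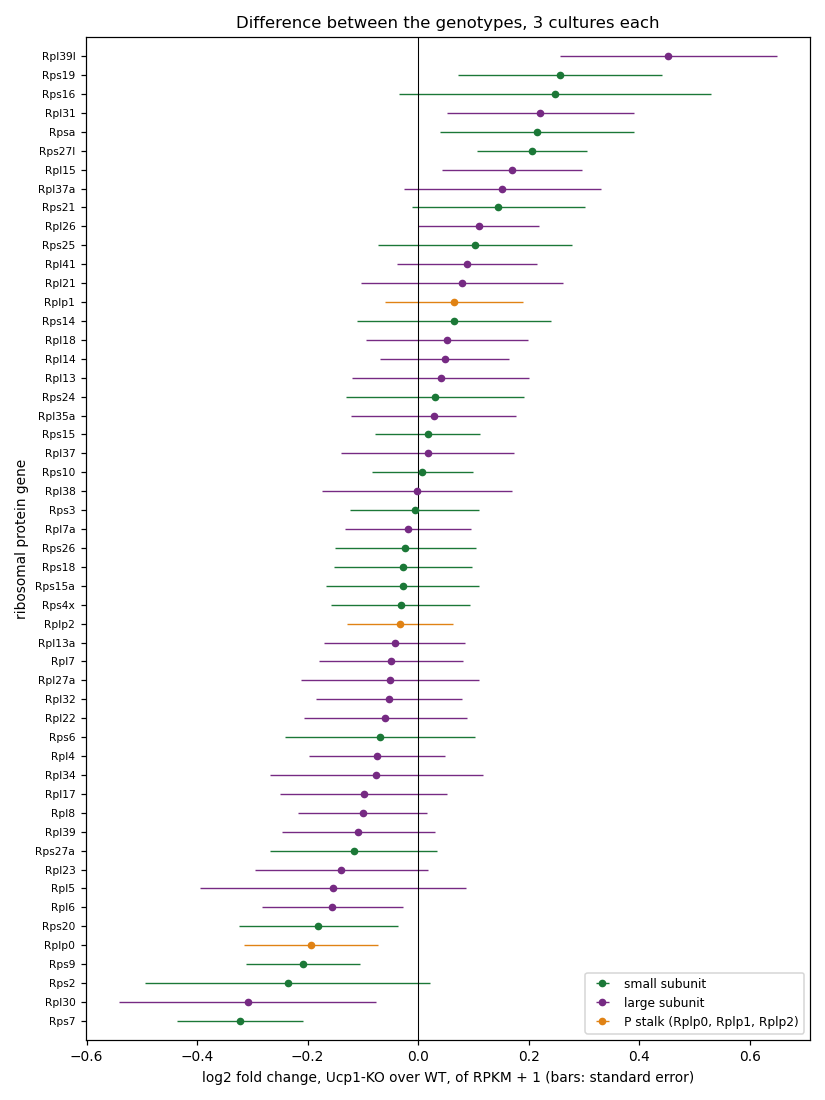
Log2 fold change of RPKM + 1 in Ucp1-KO over WT with its standard error for 52 of the 56 tested genes, coloured by subunit, 3 cultures per genotype. Values run from -0.32 for Rps7 to 0.45 for Rpl39l, 23 are above 0, and small and large subunit genes are interspersed.

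The 10 genes with the smallest unadjusted p gave the following values. Rps7, a small subunit protein that also binds Mdm2, stood at 2.13, 2.12 and 2.23 RPKM in WT and at 1.35, 1.45 and 1.81 RPKM in Ucp1-KO, from 21 to 38 reads per culture. Its log2 fold change was -0.32 ± 0.11 (SE) with an adjusted p of 0.868 (limma) and an exact permutation p of 0.1, the smallest that 3 against 3 can give. With limma-voom on reads its unadjusted p was 0.102 in place of 0.0264 and its adjusted p 0.848. Of its coding windows, 95.3% occur in other genes.

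Rpl39l had a log2 fold change of 0.45 ± 0.20 (SE) with an adjusted p of 0.868 (limma) and an exact permutation p of 0.2. All 3 of its Ucp1-KO values were above 2 of the 3 WT values, and the highest over the lowest culture was 2.14, the widest ratio of the 38 genes of at least 10 RPKM. Without WT culture 12, its lowest, the difference was 0.28, and without WT culture 11 it was 0.60. For its companion Rpl39 the Ucp1-KO mean was 91.6% of the WT mean, with overlapping cultures.

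Rps27l was at 140 ± 10.8 RPKM (SD, n = 3) in WT and 162 ± 10.2 RPKM (SD, n = 3) in Ucp1-KO, a log2 fold change of 0.21 with an exact permutation p of 0.2. Rps9, at the entry channel of the mRNA, was at 148, 161 and 134 RPKM in WT and at 135, 126 and 121 RPKM in Ucp1-KO, a log2 fold change of -0.21 with an exact permutation p of 0.2. Rplp0 had a log2 fold change of -0.19, with WT culture 11 the highest of the 6, and of -0.08 without that culture. In all 3 the genotypes overlapped.

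Rps19, the gene most often mutated in Diamond-Blackfan anaemia, stood at 13.3, 10.8 and 9.51 RPKM in WT and at 16.2, 10.4 and 14.3 RPKM in Ucp1-KO. Rpl15 of the large subunit had 12.60, 11.94 and 11.95 RPKM in WT and 16.45, 13.55 and 11.78 RPKM in Ucp1-KO. Rpl31 and Rpl30 had a handful of reads, 40 to 70 and 4 to 17 per culture, and log2 fold changes of 0.22 and -0.31. Rps20 was at 72.3, 106 and 93.7 RPKM in WT and at 80.9, 76.5 and 79.3 RPKM in Ucp1-KO, a log2 fold change of -0.18. Single cultures moved these values by over 1.5 times. Rps19 was at 0.13 without Ucp1-KO culture 13, at 0.16 without WT culture 12 and at 0.43 without Ucp1-KO culture 14. Rpl15 was at 0.05 without Ucp1-KO culture 13 and at 0.28 without Ucp1-KO culture 15, and Rpl31 at 0.09 and 0.36. Rpl30 was at -0.54 and -0.06 without the same cultures. Rps20 was at -0.33 without WT culture 10 and at -0.06 without WT culture 11. The adjusted p-values of these 5 in the fit of all 6 cultures lay between 0.878 and 0.885 (limma).

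While the genotypes did not separate, single cultures did. WT culture 11 was the highest of the 6 for 29 of the 38 genes of at least 10 RPKM (76.3%), compared with 28.5% of the 6895 transcripts at that level. It was the highest for 12 of 16 small subunit genes and 15 of 19 large subunit genes. Its median deviation from the mean of the 6 cultures was 0.22 on the log2 scale over the 38 genes, compared with 0.05 over all transcripts of at least 10 RPKM. At the other end, WT culture 10 was lowest for 17 of 38 genes (44.7%), compared with 16.6% of transcripts, with a median deviation of -0.13 compared with -0.04. On this scale the Ucp1-KO cultures lay between, at 0.01, -0.08 and 0.01 in cultures 13, 14 and 15.

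From WT culture 10 to WT culture 11, 44 of the 56 tested genes (78.6%) had a higher value, compared with 66.7% of all tested transcripts, and the median log2 ratio was 0.27, compared with 0.12. From WT culture 11 to WT culture 12 the median was -0.22, compared with -0.03, with 10 of 56 genes (17.9%) higher in culture 12, compared with 42.7%. After median-of-ratios scaling, which sets the middle of all transcripts equal, WT culture 11 was highest for 20 of 38 genes, compared with 18.6% of transcripts, and its median deviation was 0.16, compared with -0.01. With this scaling the lowest median was that of Ucp1-KO culture 14 with -0.11, followed by WT culture 12 with -0.09 and WT culture 10 with -0.05. As a share of the library totals, the reads derived for the RefSeq transcripts of the 80 genes took 0.308% in WT culture 11. In the other 5 cultures they took between 0.247 and 0.273%. Reads without a unique place and reads listed at other entries of the same gene symbols are left out. For most genes the derived numbers are the smallest that fit. The share thus compares the cultures and does not measure how much of all mRNA encodes ribosomal proteins.

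**Figure D5:**
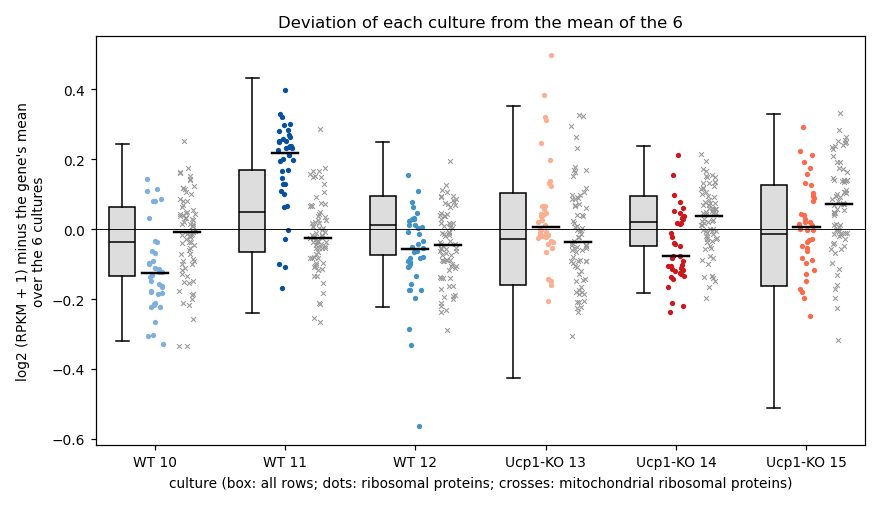
Deviation of log2(RPKM + 1) from the mean of the 6 cultures, by culture: boxes for the 6895 RefSeq transcripts of at least 10 RPKM (quartiles, whiskers from the 5th to the 95th percentile), dots for the 38 ribosomal protein genes at that level and crosses for the 74 tested mitochondrial ribosomal protein genes, with black lines at their medians. The dots of WT culture 11 centre on 0.22 and those of WT culture 10 on -0.13, while the crosses centre on -0.02 and -0.01.

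The genes moved together across the cultures. Pearson's r of each of the 38 genes with the mean of the other 37 over the 6 cultures had a median of 0.72, and 39.5% of the genes were above 0.8. For the 6857 other transcripts of at least 10 RPKM, r with the family mean had a median of 0.11, and 1.08% were above 0.8. These values describe 6 libraries and share their scaling. Rps10 had r of -0.81, at 11.04, 9.62 and 10.44 RPKM in WT and 10.70, 10.53 and 10.01 RPKM in Ucp1-KO. This r rests on a narrow span, with 1.15 for the highest over the lowest culture and a range of 86 to 108 reads. Rpl15 and Rps19 had r of -0.01 and -0.003.

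Some genes spanned more than others between cultures. The highest over the lowest culture was 1.36 at the median of the 38 genes, close to 1.35 for all transcripts at that level. After Rpl39l the widest ratios were 1.71 for Rps19, 1.52 for Rps21 and 1.52 for Rpl23. Rpl23, a large subunit protein that binds Mdm2, stood at 19.0, 28.9 and 21.6 RPKM in WT and at 19.5, 22.2 and 20.4 RPKM in Ucp1-KO, so that 1 culture set its range. Rps21 was at 70.0, 84.3 and 61.3 RPKM in WT and at 93.3, 69.1 and 76.1 RPKM in Ucp1-KO, highest in culture 13.

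Cell type markers differed between the same cultures. The 9 stromal and preadipocyte markers (Pdgfra, Dcn, Col1a1, Col3a1, Thy1, Ly6a, Cd34, Dpp4, Dlk1) summed to 1672 RPKM in WT culture 11 and to between 616 and 1005 RPKM in the others, and 6 of 9 were highest there. All 5 endothelial markers (Pecam1, Cdh5, Kdr, Tek, Emcn) were highest in WT culture 11 with a sum of 33.2 RPKM, compared with 2.76 to 15.7 RPKM. By genotype, the stromal sum was 717 to 1672 RPKM in WT and 616 to 977 RPKM in Ucp1-KO, and the endothelial sum 2.76 to 33.2 and 5.54 to 15.7 RPKM. The 5 macrophage markers in the table summed to 853 RPKM in Ucp1-KO culture 14 and to 42.0 to 189 RPKM in the others, mural markers to 131 to 221 RPKM in WT and 43.1 to 184 RPKM in Ucp1-KO, and skeletal muscle markers to at most 10.7 RPKM. By gene, all 7 tested stromal, 4 endothelial and 5 mural markers had lower values in Ucp1-KO, and all 5 tested macrophage and 4 cell cycle markers higher values. At an unadjusted p under 0.05 were the stromal marker Dcn and the mural markers Cspg4 and Myh11, with log2 fold changes of -0.85, -0.47 and -0.55, and 2 stromal markers, 2 mural markers and 1 cell cycle marker, Cdk1, did not overlap. Over all transcripts these shares were 5.54% and 11.2%. None passed the adjusted threshold with limma. None of these lists had a marker at 0 in all cultures. Their part in the ribosomal protein values was not tested.

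Leaving out WT culture 11 turned the direction of the family. Without it, 41 of 55 genes (74.5%) were higher in Ucp1-KO, compared with 55.8% of transcripts, with a median log2 fold change of 0.07. The genotypes then did not overlap in 12 genes, 11 of them higher in Ucp1-KO, compared with 14.3% and 8.47% of transcripts, and 0 genes passed the adjusted threshold. Without WT culture 10, 18 of 56 genes (32.1%) were higher, compared with 42.6% of transcripts, with a median of -0.09. Without Ucp1-KO culture 14 the median was 0.02, and 2 genes did not overlap, compared with 17.9% of transcripts. At an unadjusted p under 0.05 there were 3 genes without Ucp1-KO culture 13 and 0 without WT culture 12, compared with 9.15% and 2.61% of transcripts.

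The choice of transcripts and scaling also moved these small counts. With the most abundant transcript of any annotation, 4 of 74 genes were at an unadjusted p under 0.05 and 4 did not overlap, compared with 5.45% and 11.1% of transcripts. With median-of-ratios scaling there were 2 and 3 genes, compared with 5.93% and 11.8%. Testing all annotations in 1 fit gave 2 genes at an unadjusted p under 0.05, compared with 5.45%, and without a minimum 2 genes did not overlap, compared with 10.3%.

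Genes next to the family in function were compared in the same fit. Of the ribosomal proteins whose symbols fall outside the naming rule, Gnb2l1 (Rack1), a scaffold on the small subunit, stood at 238, 303 and 252 RPKM in WT and at 267, 238 and 245 RPKM in Ucp1-KO, again highest in WT culture 11. Fau, which encodes a ribosomal protein fused to a ubiquitin-like protein, was listed between 0.383 and 0.896 RPKM. The paralogues Rpl22l1, Rpl7l1 and Rpl36al had means of 28.8, 24.6 and 21.04 RPKM and log2 fold changes of 0.06, 0.16 and 0.11. None of the 5 tested passed the threshold, with a smallest adjusted p of 0.875 (limma).

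Translation factors and other genes known for TOP mRNAs shared the high values of WT culture 11 but not the rest of the order. Of 16 such genes, 10 were highest in WT culture 11, compared with 26.8% of all tested transcripts, and their median deviation there was 0.15. Their lowest median was that of Ucp1-KO culture 13 with -0.10, and WT culture 10 was lowest for 3 of 16. Eef1a1, which brings the aminoacyl-tRNA, stood at 303, 377 and 317 RPKM in WT and at 344, 306 and 334 RPKM in Ucp1-KO. Eef2, the translocation factor, stood at 319, 381 and 343 RPKM in WT and at 313, 319 and 343 RPKM in Ucp1-KO. Between genotypes 2 of 16 were higher in Ucp1-KO, compared with 49.6% of all transcripts, and 14 lower, with a median of -0.06. None of the 16 were at an unadjusted p under 0.05, compared with 5.54%, and 0 did not overlap, compared with 11.2%, with a smallest adjusted p of 0.878 (limma). Npm1, Tpt1 and Eif3f had the smallest p, with log2 fold changes of -0.27, -0.18 and -0.13.

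Genes of ribosome biogenesis, which make and process ribosomal RNA and assemble the subunits, had another order of cultures. Of 26, 2 were highest in WT culture 11 and 14 in Ucp1-KO culture 13, where the 4 cell cycle markers (Mki67, Top2a, Ccnb1, Cdk1) also summed to 30.6 RPKM, compared with 7.49 to 13.01 RPKM. In Ucp1-KO, 20 of 26 were higher, compared with 49.6% of all transcripts, with a median of 0.06. The genotypes did not overlap in 4, all higher in Ucp1-KO (Polr1a, Polr1b, Wdr12 and Nop58), compared with 6.04% of transcripts. At an unadjusted p under 0.05 there was 1, compared with 5.54%. It was Polr1b, the second largest subunit of RNA polymerase I, at 2.89, 2.25 and 2.51 RPKM in WT and at 3.73, 3.34 and 3.15 RPKM in Ucp1-KO, a log2 fold change of 0.31 ± 0.12 (SE) with an adjusted p of 0.868 (limma). Wdr12 and Nop58 followed with 0.20 and 0.18. Polr1d and Ncl were the most abundant, at 52.0 to 82.0 and 26.2 to 31.7 RPKM.

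Among 16 genes of the mTOR pathway and of translational control, 9 were higher and 7 lower in Ucp1-KO, with a median of 0.05 and 0 at an unadjusted p under 0.05, compared with 5.54% of transcripts. The genotypes did not overlap in 4 of 16, compared with 11.2%, Tsc2 and Rps6kb1 with higher and Eef2k and Maf1 with lower values in Ucp1-KO. Mtor stood at 23.8, 15.9 and 18.7 RPKM in WT and at 24.6, 21.3 and 20.02 RPKM in Ucp1-KO. Larp1 was nearly even at 13.8, 14.2 and 14.4 RPKM in WT and 14.4, 15.99 and 14.6 RPKM in Ucp1-KO. Eef2k, the kinase that inhibits Eef2, Rps6kb1, the S6 kinase, and Tsc2, a brake on mTOR, had the smallest p, with log2 fold changes of -0.25, 0.18 and 0.13. Eif4ebp1, the repressor of cap-dependent initiation, and Rheb were the most abundant, at 235 to 327 and 50.3 to 62.9 RPKM.

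The mitochondrial ribosome, with 76 genes of its own of which 74 were tested, did not share the high values of WT culture 11. WT culture 11 was highest for 8 of 74 genes and its median deviation was -0.02, while Ucp1-KO culture 15 was highest for 30 with a median of 0.07. In Ucp1-KO, 51 of 74 were higher, compared with 49.6% of all transcripts, with a median log2 fold change of 0.06. The genotypes did not overlap in 11, compared with 11.2%, and 8 of these were higher, compared with 6.04%. At an unadjusted p under 0.05 there were 0, compared with 5.54%, with a smallest adjusted p of 0.868 (limma). Mrpl11, Mrps17 and Mrpl30 had the smallest p, with log2 fold changes of 0.22, 0.18 and 0.24. Mrpl20 and Mrpl12 were the most abundant with means of 198 and 180 RPKM.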

How the data were processed

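Transcript abundance of 6 cultures was used, 3 WT and 3 Ucp1-KO, assigned to genotypes by their titles. The authors aligned the 50-base reads with Genomatix software, counted those with 1 identifiable place on annotated transcripts and deposited RPKM values. The authors compared the genotypes with DESeq2, which was not repeated here. All 6 value columns were used.

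Of 28890 RefSeq transcripts, the 16865 averaging 0.5 RPKM or more were tested with limma 3.58.1 under R 4.3.3 (empirical Bayes with intensity trend, log2(RPKM + 1), Benjamini-Hochberg over all of them, threshold 0.05). A constant of 1 understates changes of low transcripts. For named genes an exact permutation test, two-sided, was added, in which 0.1 is the smallest p possible. Gene positions and transcript sequences were from GENCODE M21, start sites from RefSeq. Library totals were fitted on Ensembl transcripts of known length, of whose values 92.4 to 92.6% per culture then came out as whole reads. Reads of RefSeq transcripts used the GENCODE length where it gave whole numbers (2604 of 16865, tolerance 0.01 reads), and otherwise the smallest length that did. Nearly all (16863) therefore came out whole by construction, and their counts, used in limma-voom and as read numbers, rest on fitted lengths (61 of the 72 family genes above 0). The fit and the read recovery were tested on simulated data. The floor of 3 reads covers counting error only, while SD and SE describe the spread between cultures. Python 3.11.15, numpy 2.4.6, pandas 2.3.3 and scipy 1.17.1 were used.

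The family and the gene lists were chosen with earlier results of these data known. Genes named are the 8 highest and 4 lowest tested, the 10 with the smallest unadjusted p, the 4 with the widest ratio between cultures, paralogue pairs and all below the minimum, as well as the 3 smallest p and 2 most abundant of each list. Some of these genes are counted but not reported here by name or drawn. Rps10, Rpl19, Rpl35, Dcn, Cspg4, Myh11, Cdk1, Polr1a, Maf1 and the pseudogene entries were named after their values were seen, likewise Mtor, Larp1 and the printed start sites. Alternatives were a constant of 0.1, no minimum, 1 transcript per gene, summed transcripts, all annotations, median-of-ratios scaling, no trend, limma-voom on recovered reads and leaving out each culture. Added after seeing the data were the most abundant transcript of any annotation and the genes of at least 10 RPKM only.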

Additional observations from a re-analysis of the deposited data

How the results depend on the processing

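Under all alternatives for which it was computed, 0 genes of the family and 0 of all transcripts passed the adjusted threshold with limma. The number of family genes at an unadjusted p under 0.05 was 1 as reported, 2 with all annotations, 2 with median-of-ratios scaling, 4 with the most abundant transcript of any annotation, 0 among genes of at least 10 RPKM, and between 0 and 3 when 1 culture was left out. The 1 gene was Rps7 as reported, but Rpl39l with limma-voom and without WT culture 11, and Rps19 without Ucp1-KO culture 14, both higher in Ucp1-KO. Genes whose genotypes did not overlap numbered 1 as reported, 2 without a minimum, 3 with median-of-ratios scaling, 4 with the most abundant transcript of any annotation, 0 among genes of at least 10 RPKM, and between 2 and 12 when 1 culture was left out. Without WT cultures 10, 11 and 12 these were 8, 12 and 4 genes, compared with 32.8%, 14.3% and 16.7% of transcripts, and without Ucp1-KO cultures 13, 14 and 15 they were 9, 2 and 5, compared with 27.8%, 17.9% and 20.5%. Among all transcripts of at least 10 RPKM, 5.4% were at an unadjusted p under 0.05 and 11% did not overlap. Genes higher in Ucp1-KO ranged from 18 to 41 when 1 culture was left out, the latter without WT culture 11. The median log2 fold change ranged from -0.09 without WT culture 10 to 0.07 without WT culture 11, and its sign changed without WT culture 11, without Ucp1-KO culture 14 and with limma-voom. Of 150 alternative values for the 10 genes of smallest p, 1 changed direction, Rpl30 at 0.0442 with its most abundant transcript of any annotation. The share of genes with an oligopyrimidine start was 46.7% within 5 bases. The cause of these changes was not tested, except that leaving out a culture leaves 2 cultures in 1 genotype, whose spread is assumed to be like that of the other. Depth limits statements on genes with a few reads, such as Rps16 and Rpl30. No paired analysis was possible because the replicate numbers 10 to 12 and 13 to 15 are not shared between the genotypes.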

Other observations

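When each gene was represented by its most abundant transcript of any annotation, which can lie at a pseudogene or a partial transcript, 74 of the 80 genes reached the minimum of 0.5 RPKM, compared with 56 by their RefSeq transcript. Among the 24 genes under the minimum, 18 then passed it and 5 reached 10 RPKM. These were Rpl24 with a mean of 66.5 RPKM, Rpl10a with 53.0 RPKM, Rpl36a with 48.5 RPKM, Rpl3 with 34.0 RPKM and Rpl12 with 20.3 RPKM. Of the 46 genes of at least 10 RPKM by this measure, 33 were highest in WT culture 11. At an unadjusted p under 0.05 were Rps7, Rps9, Rps23 and Rpl39l, compared with 5.45% of the 95358 transcripts tested, and 0 genes passed the adjusted threshold with limma.

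Genes with and without the oligopyrimidine motif at an annotated start were both highest in WT culture 11 at the median. Among genes of at least 10 RPKM, the median deviation of that culture was 0.10 for 7 genes with the motif and 0.23 for 22 genes without it. The difference was not tested. Within 5 bases of an annotated start the motif was found in 16 of these 29 genes, so that the 22 include genes with the motif close by.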
